A study of Mus musculus with 4 samples.

Results

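Natural killer (NK) cells of 4T1 tumours were examined as the cells with at least 1 transcript of Ncr1, the gene of the activating receptor NKp46 that marks NK cells and some other innate lymphoid cells. The cells had been sequenced with the 10x Genomics droplet method, which counts transcript molecules by their unique molecular identifiers (UMIs). A barcode belonged to the group when it had at least 300 genes, at most 15% mitochondrial UMIs, at least 1 Ncr1 UMI and none of Cd3d, Cd8a, Cd8b1 or Cd4. S100a8 and S100a9, which mark neutrophils, had to stay under 1% of its UMIs, and the keratins Krt8 and Krt18, which mark tumour and epithelial cells, under 0.2%. Of 33064 barcodes, 32133 passed the limits on genes and mitochondrial UMIs, and 256 met the whole rule, which was 0.797% of the kept cells (exact 95% interval 0.702 to 0.900%, which covers counting error and not differences between mice).

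4T1 is a mouse mammary carcinoma line, and 1000000 cells of it were implanted into the right flank of each female BALB/c mouse aged 6 to 8 weeks. The sample records list 4 tumour samples. For 2 of them the mice were injected intravenously with PBS on day 7, and for 1 with TIOs, which are macrophages frozen in liquid nitrogen and loaded with light-responsive nanoparticles, and both groups then received 980 nm light at 1.0 W cm-2 for 5 min a day from day 8 to day 10. These groups are called PBS and TIOs+NIR3, and their tumours were collected on day 13 and enriched for CD45-positive leucocytes by flow sorting. The last sample was placed in no group, because its title says PBS and its protocol TIOs. The cells lie in 1 matrix with 4 barcode suffixes, called libraries 1 to 4 here, and neither the labels nor the methods say which suffix belongs to which sample. No treatment was therefore compared and no p-value was computed, and each library is given as a sample of unknown treatment.

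NK cells are innate lymphocytes that kill infected or transformed cells without the rearranged antigen receptor of T cells. They weigh signals from activating receptors such as NKp46 and NKG2D against inhibitory receptors for MHC class I, and kill by releasing perforin, which opens the target membrane, and granzymes, the proteases that enter through it. They depend on interleukin-15, which signals through the receptor chain encoded by Il2rb, and on the T-box factors Eomes and T-bet. A related group, the type 1 innate lymphoid cells, shares NKp46 and T-bet and is told apart in mice by surface integrins, among them CD49a (Itga1) in the latter and CD49b (Itga2) in circulating NK cells.

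The 256 cells were unevenly spread over the libraries. Library 1 held 73 of 7847 kept cells (0.930%, exact 95% interval 0.730 to 1.17%), library 2 held 11 of 8614 (0.128%, 0.0638 to 0.228%), library 3 held 29 of 6783 (0.428%, 0.287 to 0.613%) and library 4 held 143 of 8889 (1.61%, 1.36 to 1.89%). The intervals of these shares did not overlap between libraries 2, 3 and 4, and library 1 lay between libraries 3 and 4. The libraries also differed in make-up and depth. Library 1 held 3576 of the 3710 tumour or epithelial cells, and the median kept cell had 11698, 2641.5, 2695 and 7182 UMIs in libraries 1 to 4. The NK cells themselves were closer in depth, with median UMIs of 4974, 7643, 6883 and 5847 and a median of 6016 over all, between 697 and 83881. Over the whole matrix 101 barcode sequences occurred in more than 1 library, and none of the 256 cells had such a barcode.

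After the Ncr1 limit, the other limits of the rule took 314 kept cells to 256, and 110 to 73 in library 1. The limits were applied in turn to the 314 kept cells with an Ncr1 UMI. Cd3d removed 27, then Cd8a or Cd8b1 removed 2 of the rest, Cd4 a further 2, the S100a8 and S100a9 limit 4 and the keratin limit 23. The 23 cells were all from library 1, their median was 22421 UMIs, and 2 of them had 3 or more of 9 other NK genes. Those 9 genes were Gzma, Klre1, Eomes, Klrb1c, Klrk1, Klrd1, Prf1, Nkg7 and Tbx21. Just inside and just outside the keratin limit the cells had 0.166% and 0.206% of their UMIs in Krt8 and Krt18, and at the neutrophil limit 0.997% and 1.41%. Among the 256 cells the fewest genes were 473, and the highest mitochondrial share was 13.5%. A median NK cell had 2 Ncr1 UMIs, and the highest had 30. Among the 17202 kept cells that met every limit but Ncr1, 94 had 3 or more of the 9 genes (22, 8, 16 and 48 in libraries 1 to 4).

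The label was set beside 9 genes that NK cells use, several of which CD8 T cells also use. The group and its gene lists were chosen with earlier results of these data known, so these genes are not an independent check. Of the 256, 206 had a UMI of 3 or more of the 9 genes (80.5%, exact 95% interval 75.1 to 85.1%), with 63 of 73, 9 of 11, 27 of 29 and 107 of 143 in libraries 1 to 4. The same was true of 202 of 261 CD8 T cells (77.4%). It was also true of 14 of 559 T cells without Cd4 or Cd8 (2.5%) and 46 of 4363 macrophages (1.05%). This limit of 3 set the NK cells apart from the latter classes and not from CD8 T cells. Higher numbers differed. Of the NK cells 52, 46, 36 and 16 had 6, 7, 8 and 9 genes, against 16, 1, 0 and 0 CD8 T cells. The macrophage rule set no limit on Ncr1, and 46 of the 256 NK cells met it, 31 of them with 3 or more of the 9 genes. The macrophage shares here and below can therefore include NK cells. Gzma, Eomes and Klrb1c had a UMI in 68.4%, 51.6% and 31.2% of the NK cells and in 4.98%, 3.83% and 0.383% of the CD8 T cells, while Nkg7, Klrd1 and Klrk1 were common in both, with 81.6%, 75% and 68.4% of the NK cells (99.5%, 90.3% and 82.5% of the 206) and 95%, 82.8% and 72.0% of the CD8 T cells. The other 50 of the 256 cells had fewer than 3 of the 9 genes, and 32 of them had none. These 50 cells had a median of 17017 UMIs against 5075 in the 206. In library 4, which held 36 of them, the medians were 33282.5 and 4726, but in library 1 they were 5134 and 4732. Of the 50, 45 had a single Ncr1 UMI. They held 47.5% of the UMIs of the 256 cells, and 60.3% of those in library 4. Of the 50, 25 had at least 10 UMIs of the collagen genes Col1a1, Col1a2 and Col3a1 and 34 at least 10 UMIs of Lyz2, a myeloid lysozyme, while 16 of the 206 reached each of these. Among cells with 1 Ncr1 UMI 50 of 95 had 3 or more of the 9 genes, among those with 2 it was 41 of 45, and among those with 3 or more it was 115 of 116. The values below are given for the 256 cells and, where the 50 bear on them, for the 206. The 206 were chosen after these values were seen, and their higher shares of the 9 genes follow from the choice.

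**Figure D1:**
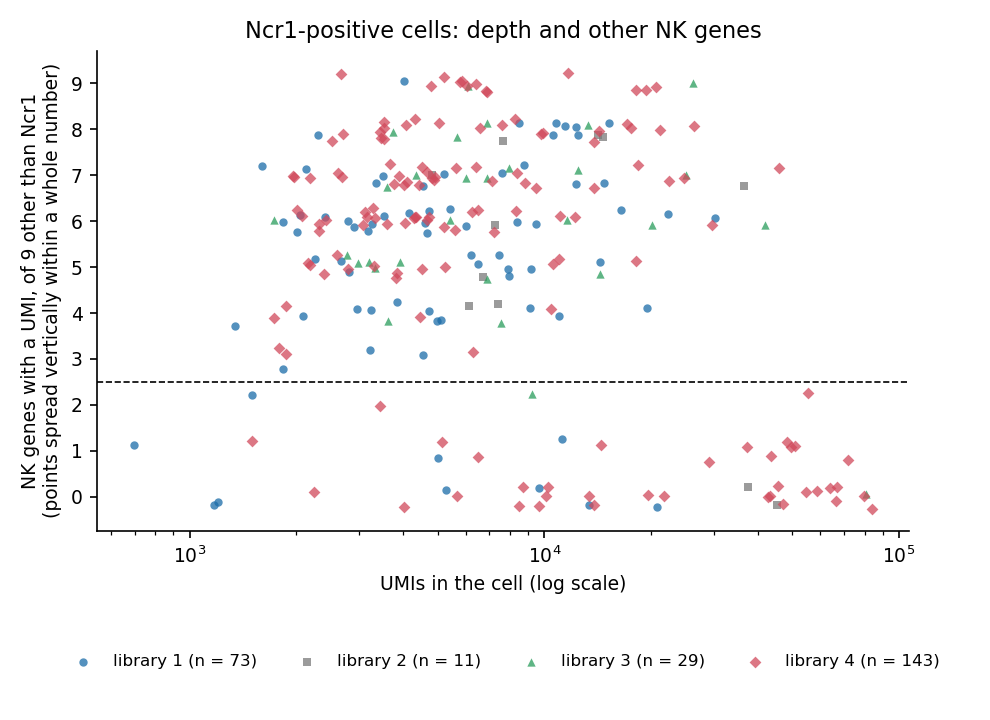
UMIs in each Ncr1-positive cell (x axis, log scale) against the number of 9 other NK genes with a UMI (y axis, points spread vertically within a whole number), with 1 point for each of the 256 cells and a colour and shape for each library. The dashed line separates the 206 cells with 3 or more genes from the 50 with fewer, and the points at the lower right are deep cells, mostly of library 4, with almost none of these genes.

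The genes that mark these cells were read first, each beside its share in macrophages (median 9305 UMIs) and neutrophils (median 1890.5 UMIs), which should lack it. The macrophage class, whose rule set no limit on Ncr1, could itself include NK cells. Gzma, granzyme A (ENSMUSG00000023132, GRCm38 chr13:113093825-113100981, minus strand), had a UMI in 57.5%, 63.6%, 75.9% and 72.7% of the NK cells of libraries 1 to 4 and in 68.4% over all (62.3 to 74.0%), against 3.30% of macrophages and 0.552% of neutrophils. Klre1, an NK lectin-like receptor (ENSMUSG00000050241, chr6:129577905-129585827, plus strand), had one in 53.4%, 54.5%, 62.1% and 49.7%, and in 52.3% over all (46.0 to 58.6%), against 0.733% and 0.0240%. Eomes (ENSMUSG00000032446, chr9:118478212-118486132, plus strand) had one in 45.2%, 54.5%, 58.6% and 53.1%, and in 51.6% over all (45.3 to 57.8%), against 0.871% of macrophages and none of the neutrophils. The 4 libraries gave overlapping intervals for each of these 3 genes. In the 206 cells the shares were 83.0%, 64.6% and 64.1%, and in the 50 they were 8.0%, 2.0% and 0%. Ptprc, the gene of CD45, had a UMI in 92.2% of the 256 cells.

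The promoters of Ncr1 and of 4 granzyme genes are shown because these genes carry the pattern described below, in which Gzma and Gzmb were found in the NK cells of every library and Gzmc and Gzmd mainly in those of library 1. Each sequence is the 250 bases before the transcript start in RefSeq (GRCm38.p6), written 5′ to 3′ on the strand of the gene, and the capitals mark the letters TGTGGTT or their reverse complement AACCACA, a core bound by Runx factors. The positions are chr7:4337465-4337714 (Ncr1, plus strand), chr13:113100982-113101231 (Gzma, minus strand), chr14:56262335-56262584 (Gzmb, minus strand), chr14:56234658-56234907 (Gzmc, minus strand) and chr14:56132594-56132843 (Gzmd, minus strand).

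Ncr1: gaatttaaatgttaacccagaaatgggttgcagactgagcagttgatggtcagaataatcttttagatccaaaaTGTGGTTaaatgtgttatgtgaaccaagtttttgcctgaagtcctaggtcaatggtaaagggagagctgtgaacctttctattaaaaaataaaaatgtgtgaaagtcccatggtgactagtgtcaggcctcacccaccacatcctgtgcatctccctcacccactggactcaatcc
Gzma: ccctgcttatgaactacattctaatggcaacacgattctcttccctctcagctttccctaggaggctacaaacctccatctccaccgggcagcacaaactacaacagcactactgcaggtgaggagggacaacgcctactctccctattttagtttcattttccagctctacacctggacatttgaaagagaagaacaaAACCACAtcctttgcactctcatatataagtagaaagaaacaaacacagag
Gzmb: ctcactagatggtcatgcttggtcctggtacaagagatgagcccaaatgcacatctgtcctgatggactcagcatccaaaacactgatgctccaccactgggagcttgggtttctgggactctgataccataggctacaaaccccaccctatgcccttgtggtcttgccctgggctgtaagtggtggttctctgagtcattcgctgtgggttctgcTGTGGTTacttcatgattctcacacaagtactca
Gzmc: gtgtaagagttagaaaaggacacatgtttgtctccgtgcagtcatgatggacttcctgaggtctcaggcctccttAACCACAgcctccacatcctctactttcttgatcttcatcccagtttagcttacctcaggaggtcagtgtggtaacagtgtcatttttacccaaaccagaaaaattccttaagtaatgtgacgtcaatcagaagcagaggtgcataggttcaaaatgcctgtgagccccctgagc
Gzmd: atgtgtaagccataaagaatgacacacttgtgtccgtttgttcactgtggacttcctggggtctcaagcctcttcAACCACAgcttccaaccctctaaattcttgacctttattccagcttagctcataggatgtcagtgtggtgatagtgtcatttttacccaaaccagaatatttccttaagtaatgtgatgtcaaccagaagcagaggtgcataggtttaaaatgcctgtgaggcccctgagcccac

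Each of the 5 windows held 1 match. Its bases lay 170 to 176 before the start in Ncr1, 45 to 51 in Gzma, 28 to 34 in Gzmb and 169 to 175 in both Gzmc and Gzmd. The Gzmc and Gzmd windows were 81.3% identical over an alignment of 257 columns (209 the same), while the other pairs were 44.6 to 51.6% identical. Of the 30 genes with the highest ratio over all other cells, 18 had a RefSeq promoter in the table used here, and 6 of these 18 held the Runx letters on either strand (Gzma, Gzmb, Gzmc, Klrk1, Txk and Xcl1), against 5.08% of 27025 genes. The T-box letters TCACACC were in 2 of the 18 (Nkg7 and Xcl1) against 3.84% of genes, and the STAT letters TTCNNNGAA in 4 (Ctla2a, Ifng, Irf8 and Nkg7) against 8.13%. These matches describe letters and not bound sites.

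The NK cells were then compared with all other kept cells. UMIs were summed over each class in each library and expressed per 1000000 UMIs of the class (CPM), and the log2 ratio of CPM + 50 was averaged over the libraries, a scale that understates the change of low genes. UMIs were taken to be counted at the 3′ end, and levels were not divided by the length of the transcript. A gene was called when the mean ratio passed 2-fold and had the same sign in every library compared. The rest of each library was a different mixture, with 3576 tumour or epithelial cells among the 7847 kept cells of library 1. Of 8695 genes compared, 100 were called higher in the NK cells (1.15%) and 89 lower (1.02%), and the median log2 ratio of all genes was 0.01. With the 206 cells the counts were 201 (2.41%) and 240 (2.87%) of 8351 genes over libraries 1, 3 and 4, and the 201 included all of the 100. Leaving library 2 out of the 256 cells gave 102 higher, and a pseudocount of 10 or 100 CPM in place of 50 gave 271 or 52.

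Cytotoxic genes led this comparison. Of the 19 genes in the list of cytotoxic effectors 13 could be compared, 9 were called higher and none lower, and their median log2 ratio was 2.35. Over the 206 cells 10 were called higher and 1 lower (Lamp1, a lysosomal membrane protein, at −1.09). Gzma was first of all genes, with a log2 ratio of 5.68 (6.08, 5.86, 5.70 and 5.08 in libraries 1 to 4). Its level in the 206 cells, which Gzma helped to choose, was 4793, 5590.0, 4525 and 6114 CPM in libraries 1 to 4. All other cells of the same libraries had 12, 4.70, 15.3 and 23.3 CPM. In the 256 cells Gzma had 2091, 588, 1165 and 4828 of 506175, 188009, 347450 and 1985767 UMIs. Library 4 was then the lowest and not the highest. In the 256 cells 5 cells held 53.8%, 91.5%, 50.1% and 18.8% of the Gzma UMIs of libraries 1 to 4, and the median cell had 3, 49, 29 and 20, so cells within a library differed widely. Gzmb, granzyme B, followed at 4.35 and had a UMI in 69.1% of the 256 cells. Its level in the 206 cells was 3223, 969.7, 3131 and 1868 CPM. The 5 cells with the most Gzmb held 41.1%, 92.2%, 70.5% and 37.7% of its UMIs in the 256 cells of libraries 1 to 4, and the median cell had 3, 5, 10 and 2, so the order of these levels rested on few cells. Prf1, perforin, reached 1015, 314, 761 and 640.1 CPM in the 206 cells, which it helped to choose. Its log2 ratio was 3.08 in the 256 cells and 3.98 in the 206. The 256 cells held 446, 33, 196 and 506 Prf1 UMIs of the same totals, a lower level in every library and most so in library 4. In libraries 1 to 4, 5 cells held 46.2%, 97.0%, 64.3% and 37.5% of these UMIs. Nkg7, a protein of cytotoxic granules, had a log2 ratio of 3.90 and a UMI in 81.6% of the 256 cells and 99.5% of the 206, although it was one of the genes that chose the latter. Ctsw, a cathepsin of cytotoxic lymphocytes, had a ratio of 2.61. The granzyme inhibitors Serpinb9 and Serpinb6b had ratios of 2.35 and 2.17. Fasl, the Fas ligand, stayed under the 2-fold limit at 0.97 with a UMI in 28.1% of the cells but passed it at 1.25 with the 206, while Tnfsf10, the TRAIL ligand, had 0.20 and 10.2%.

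**Figure D2:**
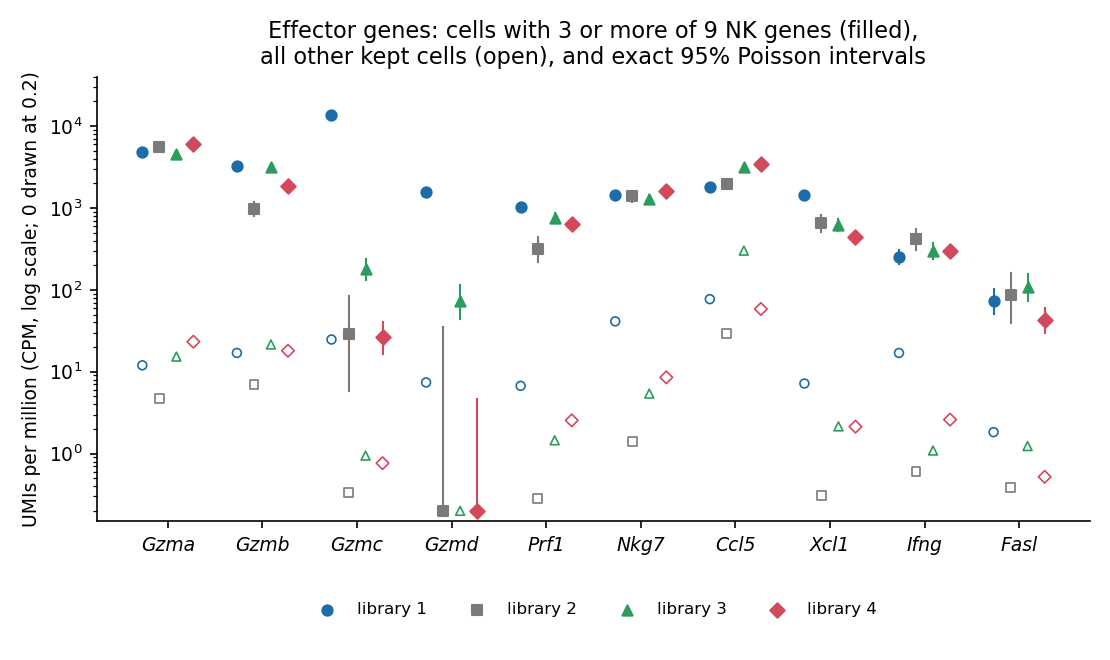
Level of 10 effector genes in CPM (y axis, log scale, 0 drawn at 0.2) in each library for the 206 cells (filled points, with exact 95% Poisson intervals for counting error) and for all other kept cells (open points). Gzma, which helped to choose the 206 cells, lay between 4525 and 6114 CPM in the 4 libraries. Over the 256 cells its level was lowest in library 4. Gzmc reached 13697 CPM in library 1 and 26.6 to 179 CPM in the others. In libraries 1 to 3, 5 cells held 50.1 to 91.5% of the Gzma UMIs of the 256 cells.

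Secreted factors and lymphocyte genes also stood among the 30 highest. Ccl5, a chemokine for T cells and monocytes, had a log2 ratio of 3.51, Xcl1, the chemokine that attracts cross-presenting dendritic cells, 3.25, and Ifng, interferon-gamma, 2.16. Ccl5 reached 1818, 1968, 3169.7 and 3488 CPM in the 206 cells of libraries 1 to 4. Xcl1 reached 1460.0, 656, 622 and 445 CPM, and 5 cells held 46.5% of its UMIs in library 1. Of the 14 secreted factors compared, 4 were called higher (Ccl5, Xcl1, Ifng and Ltb) and 2 lower, Ccl3 and Spp1, and their median was −0.12. In the 206 cells the median was 0.32, 5 were higher, Spp1 was the 1 called lower and Ccl3, at −0.89, was not called. Il2rb led the 18 cytokine receptors at 3.13 with a UMI in 78.5% of the cells, and 5 of the 18 were called higher, with Il18r1 at 1.03 and Il18rap at 1.15, the chains of the interleukin-18 receptor. AW112010 at 3.26, Ms4a4b at 2.85, Ctla2a at 2.5, Irf8 at 2.35, Txk at 2.34, Ptprcap at 2.34, Sept1 at 2.13, Gimap4 at 2.07, Skap1 at 1.88, Sh2d2a at 1.79, Ptprc at 1.78, Satb1 at 1.78, Cd69 at 1.76, Car2 at 1.75 and Cd52 at 1.74 completed the 30 highest with Gzmc and the receptors and T cell receptor genes below. Gzmc, found mainly in library 1, was at 2.45.

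Several lectin-like receptors of the NK gene complex were higher in the NK cells. Of 14 inhibitory receptors compared, 4 were called higher than in other cells (Klrd1, Klre1, Klra3 and Klrc1) and none lower, with a median of 0.39, and 6 in the 206 cells. Klrd1, which encodes CD94, the partner chain of the NKG2 receptors, had a UMI in 75% of the cells, against 1.79% of macrophages. Klrc1, the inhibitory NKG2A, had one in 33.6% and the activating Klrc2 in 34.0%. Klra3, the receptor Ly49C, had one in 34.2%, 9.09%, 41.4% and 39.9% of the cells of libraries 1 to 4, where library 2 stands for 1 cell of 11. Klra6 and Klra8 were at 0 in the 256 cells, which allows a share of up to 1.17% of cells with a UMI. The counting could split reads between near-identical Klra genes, so the values of single Klra genes are uncertain.

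Of 15 activating and costimulatory receptors compared, 7 were called higher (Klrk1, Klrb1f, Klrc2, Cd2, Itgal, Tnfrsf9 and Tnfrsf18) and 1 lower, with a median of 0.94. Klrk1, the gene of NKG2D, had a UMI in 78.1%, 54.5%, 86.2% and 60.8% of the cells of libraries 1 to 4 and a log2 ratio of 1.99. Its share in macrophages was 15.7%. Klrb1c, which encodes the antigen NK1.1 in some strains, had a UMI in 31.2% of the cells against 0.435% of macrophages, and its ratio of 0.89 stayed under the limit (it passed with the 206, which it helped to choose). Fcgr3, the Fc receptor CD16, was the gene called lower, at −1.0, with a UMI in 48.8% of all other kept cells and 27.7% of the NK cells. Among the 206 cells it was at −0.87 and not called, and 11 of 17 receptors were higher and none lower. Of the adaptors and kinases that carry these signals, 5 of 19 were called higher (Hcst, Lck, Sh2d1a, Sh2d2a and Dok2) and none lower, and 9 were higher in the 206 cells. Hcst, the adaptor DAP10 of NKG2D, had a UMI in 73.0% of the cells. Tyrobp, the adaptor DAP12, had one in 96.9% and Fcer1g in 94.5%, but myeloid cells also use both, with 91.0% and 92.8% of macrophages, and their log2 ratios were 0.60 and −0.21.

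**Figure D3:**
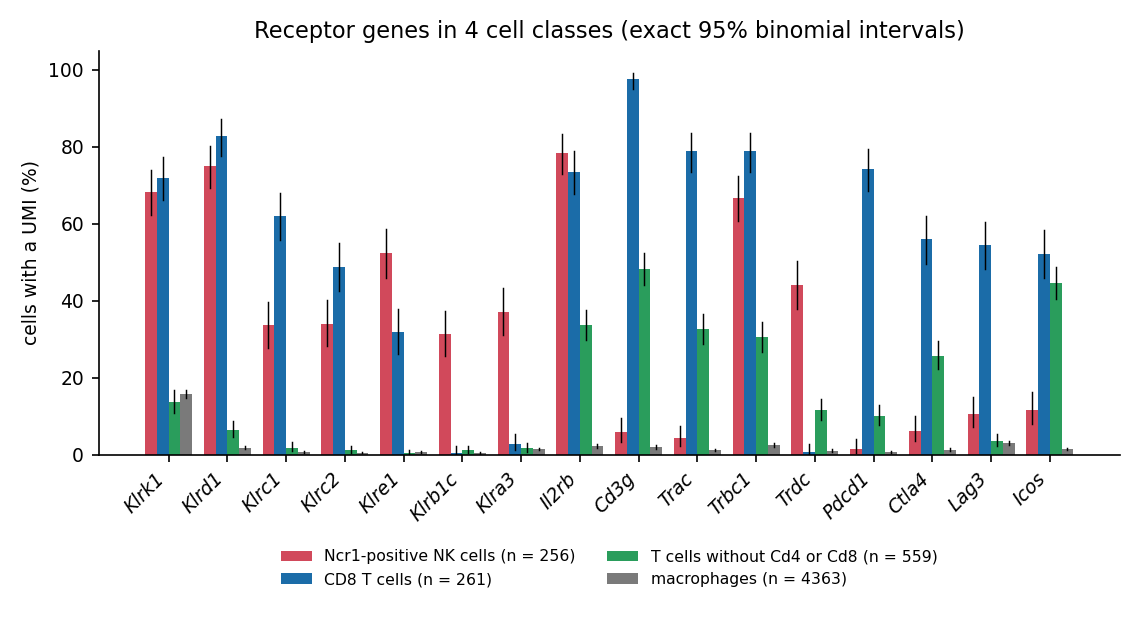
Share of cells with a UMI (y axis, percent, with exact 95% binomial intervals) of 16 receptor genes in the 256 Ncr1-positive NK cells, CD8 T cells, T cells without Cd4 or Cd8 and macrophages. Klre1, Klrb1c, Klra3 and Trdc were widest in the NK cells, while Cd3g, Trac, Pdcd1, Ctla4, Lag3 and Icos were widest in CD8 T cells.

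Of 22 transcription factors compared with other cells, 6 were called higher (Irf8, Eomes, Id2, Runx3, Ets1 and Stat4) and none lower, with a median of 0.67. In the 206 cells 10 were higher, none was lower and the median was 0.89. Eomes reached 151, 124, 218 and 270.0 CPM in the 206 cells of libraries 1 to 4, against 1.80, 0.470, 0.596 and 0.987 CPM in other cells. Its log2 ratio of 1.68 was limited by the added 50 CPM. Irf8, an interferon regulatory factor, had a UMI in 84.4% of the NK cells, but also in 62.0% of macrophages. Tbx21, the gene of T-bet, had one in 27% of the NK cells and 0.550% of macrophages, and its ratio of 0.82 stayed under the limit (it too passed with the 206, which it helped to choose). Zfp683, a residency factor, was at 0. Il23r and Il22, which mark type 3 innate lymphoid cells, were at 0 as well. Il1rl1, a receptor of type 2 innate lymphoid cells that other cells of the tumour also carried, had a UMI in 9.38% of the 256 cells and 4.37% of the 206, against 10.9% of all other kept cells.

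CD8 T cells, the other cytotoxic lymphocytes of the tumour, were compared next. They were defined by Cd3d and Cd8a or Cd8b1 without Cd4 and Ncr1, and numbered 261 with a median of 4758 UMIs, of which 236 came from library 1 and 10 from library 4. The ratios below are means over libraries 1 and 4, since libraries 2 and 3 held 6 and 9 CD8 T cells. Of 8293 genes, 27 were called higher in NK cells (0.326%) and 35 lower (0.422%), with a median log2 ratio of 0.03. With the 206 cells the counts were 40 (0.567%) and 58 (0.822%) of 7055 genes, and 16 of the 27 and 25 of the 35 were among them. Without library 1 the ratios rest on the 10 CD8 T cells of library 4, and 263 genes were then at least 2-fold higher and 191 lower. The counts also turned on the scale, with 363 higher and 159 lower at a pseudocount of 10 CPM, 11 and 13 at 100 CPM, and 150 and 101 from summed counts of all libraries, so neither the number of genes nor the balance of higher to lower was stable.

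Granzymes A, B and C had the 3 highest ratios of NK cells over CD8 T cells, and perforin passed as well. Gzma had a log2 ratio of 3.94 (3.78 in library 1 and 4.11 in library 4), Gzmb 2.45 (2.74 and 2.15) and Prf1 1.73 (1.41 and 2.05). After each cell was thinned to 1000 UMIs, Gzma was found in 61.6% of 255 NK cells and 3.47% of 259 CD8 T cells, and Gzmb in 49.8% and 17.4%. Unthinned, the shares were 68.4% and 4.98%, and 69.1% and 29.5%. Gzmc had a ratio of 3.12, but this was 5.96 in library 1 and 0.29 in library 4. Of the 13 effectors compared, 6 were called higher, the others being Serpinb9 at 1.79 and Serpinb6b at 1.82, and none lower, with a median of 0.62. Nkg7 did not pass, at 0.19, and had a UMI in 95% of CD8 T cells. Ccl5 at 1.73, Xcl1 at 2.03, Klra3 at 1.94, Eomes at 1.63, Car2, a carbonic anhydrase, at 1.48 and Trdc at 1.40 were the other genes among the 12 highest. The ratio of Ccl5 was 0.45 in library 1 and 3.01 in library 4, which held 10 CD8 T cells. Eomes was found in 3.83% of the CD8 T cells, against 51.6% of the NK cells. Ifng, at −0.38, was not called and changed sign between libraries 1 and 4 (−1.61 and 0.86).

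The 35 genes lower in NK cells included 5 of the 11 genes compared in the list of the T cell receptor complex (Cd3g, Cd3e, Trac, Trbc2 and Cd28) and 3 of the 16 inhibitory receptors (Pdcd1, Ctla4 and Lag3). In each list 1 gene was called higher, Trdc and Klra3, and the medians were −1.04 and −0.14. For the 206 cells 4 and 3 genes were lower, 1 and 3 higher (Klre1, Klra3 and Klra7 among the inhibitory receptors) and the medians −0.88 and 0.11, so the median of the inhibitory receptors changed sign. Cd3g had a log2 ratio of −3.42, Cd3e −3.27, Trac −2.42, Trbc2 −2.27 and Lat, the adaptor of that receptor, −2.04. Because the rule asked for Cd3d in one class and for its absence in the other, the low CD3 genes follow in part from the choice of cells. Pdcd1, the gene of PD-1, had a UMI in 1.56% of the NK cells (exact 95% interval 0.427 to 3.95%) and 74.3% of the CD8 T cells, with a ratio of −1.93 (−3.30 in library 1 and −0.55 in library 4). Ctla4 was at −1.40, Icos at −1.39 and Lag3 at −1.12, with UMIs in 6.25%, 11.7% and 10.5% of NK cells and in 55.9%, 52.1% and 54.4% of CD8 T cells. These shares set NK cells mostly of library 4 beside CD8 T cells mostly of library 1. Within library 1 they were 20.5%, 16.4% and 23.3% of NK cells and 58.5%, 51.3% and 58.5% of CD8 T cells. Havcr2, the gene of TIM-3, was in 7.03% and 20.3%, and Tigit in 1.17% and 2.30%, neither of them called. The cytokine receptor gene Il7r was at −1.96, the chemokine receptor Cxcr6 at −1.96, the T-lineage factor Bcl11b at −1.70 and Inpp4b at −1.33. Ifitm1 at −3.12, Gm8369 at −1.52 and Ccl11 at −1.46 completed the 12 lowest. Ccl11, a fibroblast chemokine, was 585 CPM in the CD8 T cells of library 4 and 18.2 CPM in those of library 1.

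**Figure D4:**
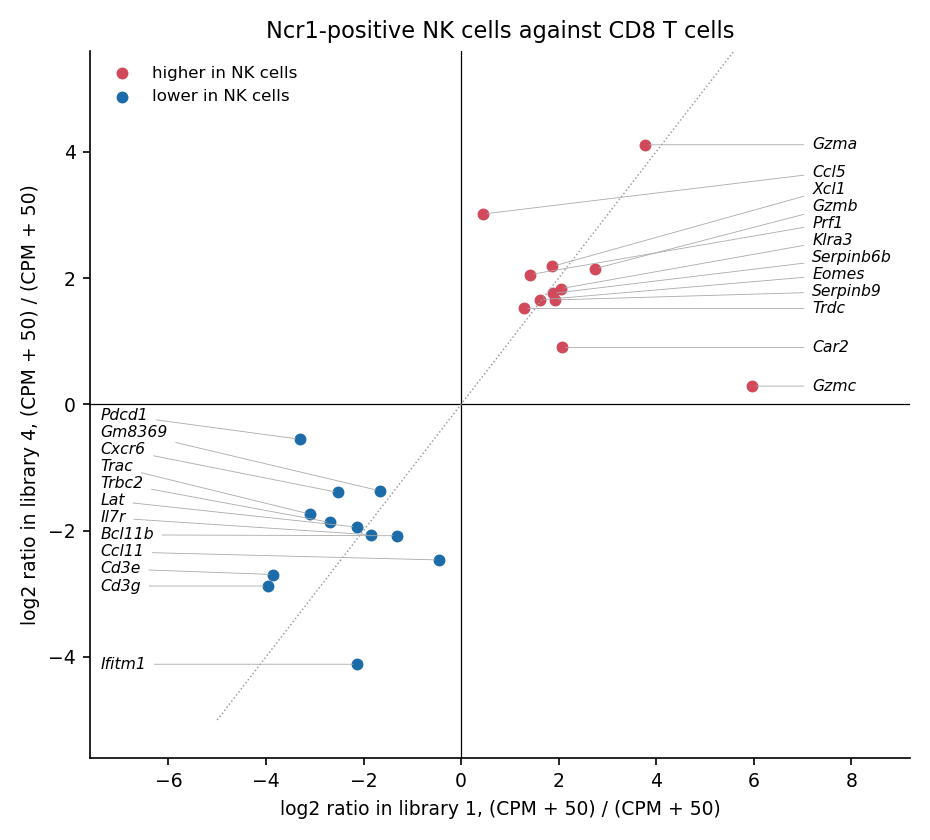
Log2 ratio of CPM + 50 between Ncr1-positive NK cells and CD8 T cells in library 1 (x axis, 236 CD8 T cells) and library 4 (y axis, 10 CD8 T cells) for the 12 highest and 12 lowest called genes, with a dotted line of equality. Gzmc lay far from the line, at 5.96 and 0.29, and Gzma close to it, at 3.78 and 4.11.

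Transcripts of T cell receptor genes were not absent from the NK cells. Trbc1, the constant region of the beta chain, had a UMI in 66.8% of them and 78.9% of the CD8 T cells, against 2.45% of macrophages, and a log2 ratio of 2.36 over other cells. Trdc, the constant region of the delta chain, had one in 32.9%, 27.3%, 48.3% and 50.3% of the NK cells of libraries 1 to 4 and 44.1% over all, against 0.766% of CD8 T cells and 1.01% of macrophages. Trac, by contrast, had a UMI in 4.30%, Cd3g in 5.86% and Cd3e in 6.25% of the NK cells. So Trbc1 and Trdc were common in cells where Trac, Cd3g and Cd3e were rare. Of the 256 cells, 63 had no UMI of Cd3e, Cd3g, Trac, Trbc1 or Trbc2 (13, 1, 6 and 43 in libraries 1 to 4), and 25 of these 63 had 3 or more of the 9 NK genes.

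T cells without Cd4 or Cd8 transcripts gave a comparison in all 4 libraries, with 117, 57, 253 and 132 cells and a median of 4271 UMIs. Of 8846 genes, 56 were called higher in NK cells (0.633%) and 47 lower (0.531%), with a median of −0.01. With the 206 cells, in libraries 1, 3 and 4, the counts were 106 (1.22%) and 193 (2.23%) of 8673 genes, which included the 56 and 43 of the 47. A pseudocount of 10 CPM gave 160 and 212, and one of 100 CPM 28 and 16. The 12 highest were Gzma at 5.26, Nkg7 at 3.62, Ccl5 at 3.34, Prf1 at 3.09, Gzmb at 3.00, Xcl1 at 2.98, AW112010 at 2.65, Klrd1 at 2.47, Gzmc at 2.34, Irf8 at 2.29, Ctsw at 2.24 and Il2rb at 2.24. The NK cells held 5984, 3, 46 and 22 Gzmc UMIs in libraries 1 to 4, so the ratio of Gzmc rested mainly on library 1. Of the 13 effectors compared, 9 were called higher and none lower, with a median of 2.19. Gzma ranged from 4.25 in library 2 to 6.1 in library 1. Thinned to 1000 UMIs, 2.06% of 534 such T cells had Gzma. Trdc had a ratio of 0.08 that changed sign between libraries (−1.90, 0.26, 1.14 and 0.83), and 11.6% of the T cells had a UMI of it.

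The 47 genes lower than in these T cells included Cd3g at −1.90, the costimulatory receptor genes Tnfrsf4 at −1.58 and Icos at −1.49, Il7r at −1.40 and Ctla4 at −1.20, which are T cell genes. Cxcl14 at −2.17, Col1a1 at −1.78, Col3a1 at −1.54 and Col1a2 at −1.49 are expressed by fibroblasts, and in the 206 cells they were at −2.76, −3.37, −2.82 and −3.19. Among the others Pf4 at −1.68, Lyz2 at −1.64, Saa3 at −1.61, Cxcl2 at −1.61 and Il1b at −1.43 are expressed by myeloid cells and platelets or, for Saa3, also by stroma. These fibroblast and myeloid transcripts were found in both classes, with Lyz2 in 70.7% of the NK cells and 55.3% of the T cells, and their part in the ratios was not tested.

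Gzmc differed between the NK cells of the libraries in its share of cells and its level. Gzmc, granzyme C (ENSMUSG00000079186, chr14:56231441-56234656, minus strand), had a UMI in 42.5%, 18.2%, 17.2% and 4.90% of the 256 cells of libraries 1 to 4 and in 46.0%, 22.2%, 18.5% and 5.61% of the 206. Its level in the 206 was 13697, 28.5, 179 and 26.6 CPM, against 24.7, 0.334, 0.945 and 0.764 CPM in all other cells. Library 1 was thus also the highest among all other cells. Of the 261 CD8 T cells, 236 of them from library 1, 8.81% had a Gzmc UMI. In library 1 the 5984 Gzmc UMIs came from 31 of 73 cells, the highest cell had 916, and the 5 highest held 55.6% of them. Gzmd (ENSMUSG00000059256, chr14:56129556-56132608, minus strand) had a UMI in 23.8% of the 63 cells of library 1 and 7.41% of the 27 of library 3, and in none of libraries 2 and 4, which allows up to 33.3% and 2.80%. Of the last 500 bases of the transcripts, cut into stretches of 50 bases, Gzmd and Gzme shared 20.6% and 18.2% with another granzyme, so their values are uncertain, while Gzma, Gzmb and Gzmc shared none. Gzma, one of the genes that chose the 206 cells, had UMIs in 66.7%, 77.8%, 81.5% and 93.5% of them in libraries 1 to 4.

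The shares of 6 other genes, most of them linked to tissue residency, circulation or maturation, were picked after their values were seen and are given as a description of each library. Among the 206 cells, Itga1 had a UMI in 31.7%, 11.1%, 7.41% and 8.41% of the cells of libraries 1 to 4, and Itga2 in 4.76%, 0%, 22.2% and 38.3%. Itgam, the CD11b integrin gained by mature NK cells, was in 7.94%, 11.1%, 22.2% and 34.6%. Kit, a receptor of progenitors and innate lymphoid cells, was in 30.2%, 11.1%, 11.1% and 1.87%, Ctla4 in 22.2%, 0%, 0% and 0.935%, and Lag3 in 27%, 11.1%, 18.5% and 1.87%. Itgam was also lower in the rest of library 1, with 33.2 CPM against 90.5, 89.3 and 259.9 CPM in libraries 2 to 4, and the part of other cells' transcripts in these shares was not tested. After thinning to 1000 UMIs the 206 cells had Gzmc in 42.9%, 11.1%, 11.1% and 0.935%, Itga2 in 1.59%, 0%, 3.70% and 11.2% and Itga1 in 6.35%, 0%, 0% and 2.80% of cells of libraries 1 to 4. Whether these differences follow the treatment, the mouse or the handling of a library cannot be told apart.

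**Figure D5:**
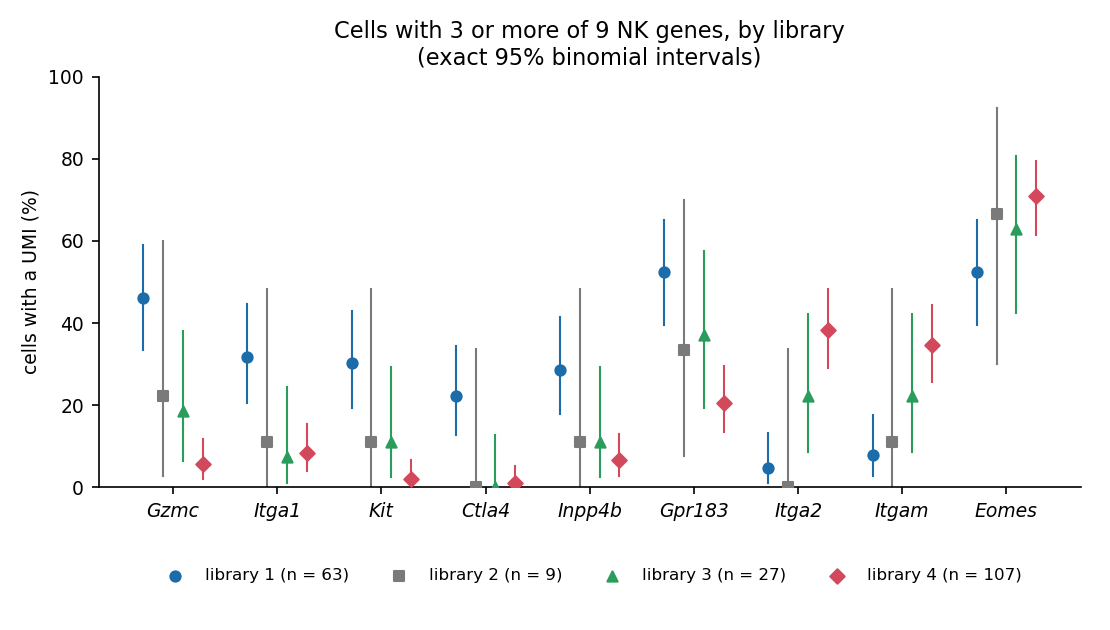
Share of the 206 cells with a UMI (y axis, percent, with exact 95% binomial intervals) of 9 genes in each library, with 63, 9, 27 and 107 cells in libraries 1 to 4. Gzmc, Itga1, Kit, Ctla4 and Inpp4b were highest in library 1, and Itga2 and Itgam were highest in library 4.

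Cells with and without Gzmc were also compared among the 206. Of the 42 cells with Gzmc, 38.1% had Gzmd against 0.610% of the 164 without it, 40.5% had Itga1 against 9.15%, and 9.52% had Itga2 against 28%. Gzma was in 57.1% and 89.6%, and Eomes in 47.6% and 68.3%, although both are among the genes that chose the cells. The cells with Gzmc were deeper, with a median of 9134 UMIs against 4513, and came mostly from library 1. Within library 1 alone, 29 cells with Gzmc stood beside 34 without it, with Gzmd in 48.3% and 2.94%, Itga1 in 48.3% and 17.6%, Itga2 in 3.45% and 5.88%, Gzma in 55.2% and 76.5% and Eomes in 48.3% and 55.9%, at median depths of 9168 and 3249.5 UMIs. In library 3, where 5 cells had Gzmc, 2 of them had Gzmd, none Itga1 and 1 Itga2, against none, 9.09% and 22.7% of the 22 others. In library 4, where 6 cells had Gzmc, none had Gzmd, 33.3% Itga1 and 33.3% Itga2, against none, 6.93% and 38.6% of the 101 others. Of the 32 cells with Itga1, 5 also had Itga2, none of 20 in library 1, 1 of 2 in library 3 and 4 of 9 in library 4. In library 4 this was 44.4%, against 37.8% of the cells without Itga1.

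Genes of division and stimulation were read against the 1.15% higher and 1.02% lower of all genes compared. Mki67, a gene of dividing cells, had a UMI in 13.7%, 45.5%, 31.0% and 24.5% of the 256 cells of libraries 1 to 4 and 23.0% over all (18 to 28.7%), against 20.3% of CD8 T cells and 22% of macrophages. It was in 20.4% of the 206, and within library 1 in 13.7% of the NK cells and 20.8% of the CD8 T cells. Against all other cells none of 22 cell cycle genes was called, with a median of 0.21. Of 26 interferon-stimulated genes 1 was called, lower (Rsad2, an antiviral enzyme), with a median of −0.30, and of 22 immediate-early and stress genes 1 was called, higher (Dusp2, a phosphatase), with a median of −0.10. With the 206 cells, against 2.41% higher and 2.87% lower of all genes, 1 of 16 cell cycle genes was higher, 1 interferon-stimulated gene was higher and 2 lower, and 3 immediate-early and stress genes were higher (Dusp2, Nr4a2 and Btg2) and 2 lower (Egr1 and Ier3). Of 16 homing and adhesion genes 2 were called higher (Selplg and Cd69), with a median of 0.55, and 7 in the 206 cells, with a median of 0.70. Ccr2, a chemokine receptor of monocytes and some NK cells, had a UMI in 71.1% of the NK cells and 54.7% of macrophages. Of 21 maturation and residency genes 3 were called higher (Spn, Xcl1 and Rgs1), with a median of 0.39, and in the 206 cells 6 were higher (also Cd27, Cd7 and Gpr183) and 1 lower (Ly6a). Cd27 was in 32% of the NK cells, Klrg1, a receptor of mature cells, in 12.5%, and Itgae, the integrin CD103 of resident lymphocytes, in 0.391%.

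Transcripts of other cell types were present and differed between libraries. Fibroblast markers summed to 6504 CPM in the 256 cells, 2260 CPM in the 206 and 11185 CPM in the 50, against 10853 CPM in all other cells. In the 206 the sums were 94.0, 19042, 1872 and 1347 CPM in libraries 1 to 4, so the 9 cells of library 2 were the highest. Macrophage and monocyte markers summed to 2396, 2386 and 2406 CPM in the 256, the 206 and the 50, with Lyz2 the most abundant, and to 3409 CPM in other cells. T cell markers summed to 381, 685 and 45.2 CPM against 177 CPM, with Trbc1 the most abundant, and B cell markers to 1.65 CPM in the 256. Of the 256 cells 46 had 2 or more UMIs of C1qa and C1qb, of which 30 were from library 1. Among genes with a UMI in at least 20% of the 256 cells, the 12 with the widest range over libraries 1, 3 and 4 were Col3a1, Lyz2, Cd74, Timp1, Apoe, Ptx3, Pf4, C1qa, Fstl1, Ccl7, H2-Aa and Cxcl5, genes of fibroblasts and myeloid cells. Col3a1 was 83.0, 507 and 3880.1 CPM in the NK cells and 382, 4434 and 4419 CPM in other cells of these 3 libraries. In the 206 cells it was 39.0, 509 and 630 CPM, so its high level in library 4 came mostly from the 50. Gzmc, with a UMI in 17.6% of the 256 cells, was left out by this limit, and its level there was 11822, 132 and 11.1 CPM in the same libraries. In the 206 cells 20.4% had Gzmc, and 29 of these 42 cells were from library 1, where its level was high. Gzmc thus passed the limit mainly through that library, and its rank by range is not an independent result. Its log2 range of CPM + 50 was 7.49, against 0.558 in other cells. The levels in other cells, 24.7, 0.945 and 0.764 CPM in libraries 1, 3 and 4, lay under the added 50 CPM, which narrows their range. The part of free RNA, doublets and cells of another type in these values was not tested.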

How the data were processed

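The authors deposited a single matrix that gives raw UMI counts of 55450 genes in 33064 barcodes. It was made with Cell Ranger, for which the submitters' processing notes name version 2.1.1 and build mm10, the matrix header 6.1.2 and the design text 3.0.2. Library totals were 108646352, 81369540, 69255999 and 96493208 UMIs for libraries 1 to 4. The design text names 15603 cells after its filter, whereas 32133 barcodes passed the same limits on genes and mitochondrial UMIs here. All 55450 identifiers were found in GENCODE vM21 (GRCm38), used for coordinates, and promoters came from RefSeq. The gene ratios, intervals and thinning were computed with numpy 2.4.6, pandas 2.3.3 and scipy 1.17.1 in Python 3.11.15 and tested on simulated data.

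Genes were compared within libraries with at least 10 cells of both classes when at least 10% of the cells of either class had a UMI, and the 9 genes of the membership rule were left out. Shares carry exact Clopper-Pearson 95% intervals, sums exact Poisson intervals, and a count of 0 allows up to 3 counts. With cells of unknown treatment, no group was tested. CD8 T cells and T cells without Cd4 or Cd8 were defined by Cd3d, Cd8a, Cd8b1 and Cd4 with Ncr1 at 0 and the same limits on S100a8, S100a9, Krt8 and Krt18, macrophages by at least 2 UMIs of C1qa and C1qb without Cd3d under those limits, and neutrophils by at least 5% of UMIs in S100a8 and S100a9 with Csf3r. No doublet caller was run, and removal of the deepest cells served as an alternative. The text names the 30 highest genes over all other cells, the 12 highest and 12 lowest against each T cell class, the 12 with the widest range over libraries with at least 20 NK cells among genes with a UMI in at least 20% of the cells, the genes of the membership rule and genes of fixed lists, apart from those said to be picked after their values were seen. The members and lists were chosen with earlier results of these data known.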

Additional observations from a re-analysis of the deposited data

How the results depend on the processing

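Each of the 9 results (the share of NK cells among kept cells, the shares with Gzma, Klre1 and Eomes, and the 5 counts of called genes) was recomputed under 7 to 13 alternatives besides leaving out libraries, which gave 99 values. Of these, 53 stayed within counting error or 1.5 times the count and 46 did not, and the cause was not tested. A minimum of 500 genes, at most 10% mitochondrial UMIs and detection limits of 5%, 20% or none moved no result that far. Leaving out each library in turn gave 0.486 to 1.04% for the share of NK cells, 62.8 to 72.7% for Gzma, 51.1 to 55.8% for Klre1 and 49.6 to 54.1% for Eomes. The counts of called genes were then 87 to 131 against other cells, 27 to 263 higher and 35 to 191 lower against CD8 T cells, and 46 to 62 higher and 46 to 66 lower against T cells without Cd4 or Cd8. The highest counts against CD8 T cells were without library 1, which leaves library 4 alone, and without library 4 the lower count was 67.

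With Ncr1 from 2 UMIs the share of NK cells was 0.501%, the shares with Gzma, Klre1 and Eomes were 78.3%, 66.5% and 64.6%, and the counts were 192 against other cells, 57 lower against CD8 T cells, and 107 higher and 233 lower against T cells without Cd4 or Cd8. Library 2 then held 7 NK cells, under the minimum of 10. Its loss adds to the change of cells against other cells and against T cells without Cd4 or Cd8. The comparison with CD8 T cells did not use library 2. Leaving library 2 out of the 256 alone gave 102, 35, 47 and 47 for these counts. With Cd3e, Cd3g, Trac, Trbc1 and Trbc2 also at 0 the values were 0.196%, 38.1%, 25.4% and 27%, with 33 genes against other cells, 163 and 128 against CD8 T cells and 10 and 23 against the other T cells. Libraries 2 and 3, with 1 and 6 cells, dropped out of the comparisons with other cells and with the other T cells. The comparison with CD8 T cells used libraries 1 and 4 as before. Without the limits on S100a8, S100a9, Krt8 and Krt18 the counts against CD8 T cells were 61 and 65, and without cells above the 95th percentile of UMIs the lower count against T cells without Cd4 or Cd8 was 81. Thinned to 1000 UMIs, Gzma, Klre1 and Eomes were in 61.6%, 14.9% and 21.2%, and from 2 UMIs Klre1 and Eomes were in 29.7% and 32.8%. A pseudocount of 10 CPM gave 271 genes against other cells, 363 and 159 against CD8 T cells and 160 and 212 against the other T cells, and one of 100 CPM gave 52, 11 and 13, and 28 and 16. Summed counts of all libraries gave 150 and 101 against CD8 T cells and 29 lower against the other T cells. An alternative added after seeing the data kept the 206 cells with 3 or more of 9 NK genes, with 0.641% of kept cells, 201 genes against other cells, 58 lower against CD8 T cells and 106 and 193 against the other T cells. Another, also added then, asked for 3 or more of the other 8 genes, the gene itself not counted, with 82.8%, 64.4% and 64.1% for Gzma, Klre1 and Eomes.

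No analysis paired by sample or treatment was possible, because no library could be linked to a sample. Ratios between classes were taken within each library and averaged, and no result comes from a test. Depth limits the shares of low genes, library 2 holds 11 of the NK cells, and the 10 CD8 T cells of library 4 limit the comparison with that class. The counts of called genes depend on the pseudocount, since a gene near 50 CPM can pass 2-fold under a smaller one.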
